A study of Mus musculus with 24 samples.

Results

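The Hox genes are the homeobox genes of 4 clusters, Hoxa on chromosome 6, Hoxb on chromosome 11, Hoxc on chromosome 15 and Hoxd on chromosome 2. They were taken as every entry of both expression tables named Hoxa, Hoxb, Hoxc or Hoxd and a number. This gave 40 of the 37310 gene entries in each table. Hoxa3 had 2 entries, of which ENSMUSG00000059723.6 had no reads in any sample, so 39 genes are described: 11 of Hoxa, 10 of Hoxb, 9 of Hoxc and 9 of Hoxd.

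HOX proteins are transcription factors that give cells of the embryo their position along the head-to-tail axis. Within a cluster, genes at the 3′ end are switched on earlier and further towards the head than genes at the 5′ end. In embryonic stem (ES) cells the clusters are largely silent and carry the Polycomb mark on histone H3 lysine 27. SMCHD1 is a noncanonical SMC protein that helps keep the inactive X chromosome and several gene clusters silent, DUX is a transcription factor active just after fertilization, and TET enzymes oxidize methylated cytosine.

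RNA was sequenced from mouse ES cells of 6 genotypes, with 3 biological replicates of each. The genotypes were wild type (WT), Smchd1 knockout (Smchd1 KO), Dux knockout (Dux KO), loss of both Smchd1 and Dux (Double KO), loss of Tet1, Tet2 plus Tet3 (Tet TKO), and loss of Smchd1 on top of these 3 Tet genes (quad KO). All cells grew without feeders in serum and LIF, a cytokine that keeps ES cells undifferentiated. WT and Smchd1 KO were sequenced in 2 technical runs, which makes 24 libraries of 18 samples; whether a genotype is 1 clone or several, and how the alleles were made, is not given in the sources used here. The WT, Dux KO, Smchd1 KO and Double KO samples stand in a first table and Tet TKO and quad KO in a second, each normalized on its own, so genotypes were compared within a table only. The unit is CPM, read counts scaled to library size.

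Gene reads per library numbered 11399770 to 74448358 in the first table and 27325307 to 34589966 in the second. The Smchd1 transcript fell from 206 ± 2.28 CPM (SD, n = 3, as for every SD below) in WT to 60.4 ± 15.3 CPM in Smchd1 KO. In the second table the Tet TKO samples had 155 ± 5.46 CPM of it and those of quad KO 23.4 ± 14.7 CPM. Dux was too low in WT (0.041 to 0.141 CPM) to check the Dux KO label, and the sample labelled Dux KO replicate 1 had 0.447 CPM while replicates 2 and 3 had no Dux reads. Markers of ES cells (10 of 10 detected, Pou5f1, Nanog and Sox2 among them) gave sums of 4590 to 4680 CPM (WT), 4580 to 5130 (Smchd1 KO), 3970 to 4440 (Dux KO) and, lowest, 2600 to 3960 (Double KO). WT and Tet TKO replicates were nearly as alike as the technical runs of a sample, and the labels do not say that replicates came from separate cultures, so p-values measure the spread between these samples. In these bulk samples, fewer cells expressing a gene and less RNA per cell cannot be told apart.

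Chromosome 6 stood apart in some samples. The median log2 difference from the WT mean over its genes was -0.46 in Smchd1 KO replicate 2, -0.23 and -0.44 in Dux KO replicates 1 and 2, and -0.49 in Double KO replicate 3. The samples of low chromosome 6 left out below are the 3 more than 0.4 under WT, which are replicate 2 of Smchd1 KO, replicate 2 of Dux KO and replicate 3 of Double KO, so Dux KO replicate 1 stayed in. In the other first-table samples it lay between -0.1 and 0.01, and the chromosomes of Hoxb, Hoxc and Hoxd lay between -0.1 and 0.06 in all samples. Against Tet TKO it was -0.21, -0.28 and -0.27 in the 3 quad KO samples, so there the chromosome 6 level and the genotype cannot be told apart.

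In WT most Hox genes were near silence. Summed over members, Hoxa gave 19.3 ± 1.1 CPM, Hoxb 3.68 ± 0.316, Hoxc 3.95 ± 0.173 and Hoxd 3.98 ± 0.344. Of the 39 genes, 10 averaged 1 CPM or more and 25 averaged under 0.5 CPM. Per kilobase of exon, Hoxd13 (0.978 CPM per kilobase), Hoxc13 (0.915) and Hoxa4 (0.771) were among the higher levels. Hoxd13 and Hoxc13 are the last genes at the 5′ ends of their clusters. In the second table Hoxd13 stood highest of all members, at 3.59 CPM per kilobase in Tet TKO and 6.21 in quad KO. Hoxb6 had no reads in Smchd1 KO, Hoxb5 and Hoxb6 none in Dux KO and Hoxb5 none in Double KO. A limit of 3 reads over the group corresponds to 0.016, 0.0708 and 0.0628 CPM, and this covers counting error only.

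**Figure D1:**
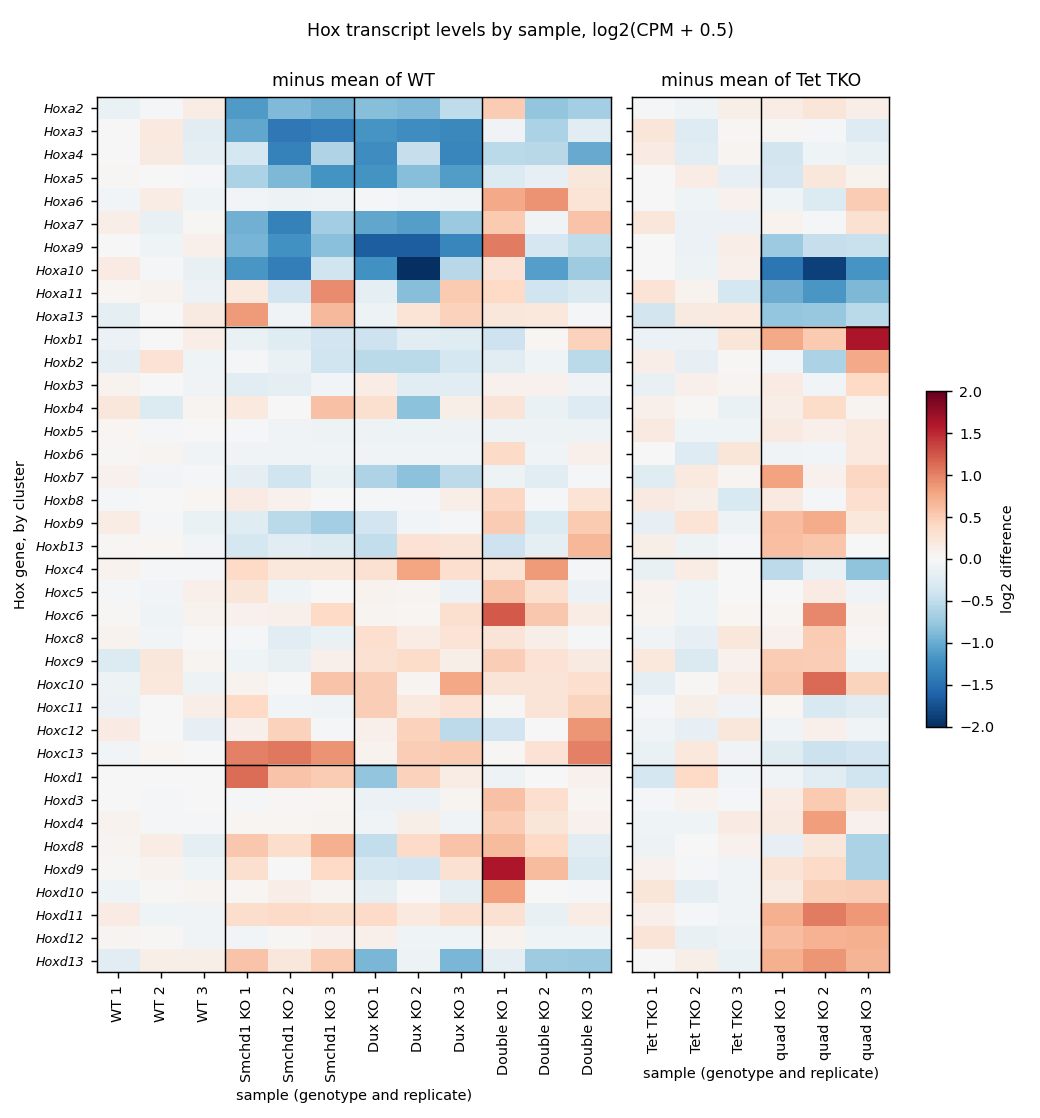
Level of 38 Hox genes (rows, by cluster) in each sample (columns) as a log2(CPM + 0.5) difference from the WT mean (left, first table) or the Tet TKO mean (right, second table). Blue is lower and red higher, capped at 2 in each direction; Hoxa3, Hoxa5 and Hoxa7 are blue in all Smchd1 KO and Dux KO samples and nearer to WT, or above it, in Double KO, and Hoxd11 to Hoxd13 are red in all 3 quad KO samples.

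The tests used genes that reached 0.5 CPM in 3 or more samples, which left 19 of the 39 Hox genes in the first table (9 Hoxa, 3 Hoxb, 3 Hoxc, 4 Hoxd) and 18 in the second (5, 4, 3 and 6). A gene is called when limma's test on log2(CPM + 0.5) gives a Benjamini-Hochberg adjusted p under 0.05 over all genes tested. Log2 changes are on that scale, which understates the change of low genes. Because the filter favours a gene that is high in some genotype, the direction is also given over all members with reads.

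The first comparison asks what loss of Smchd1 does in otherwise wild-type cells. Hoxa was lower as a cluster: its sum was 10.7, 6.07 and 10.4 CPM in the 3 Smchd1 KO samples against 20.1, 19.7 and 18.0 CPM in WT. Hoxc and Hoxd lay on the other side, with Hoxc at 7.2 ± 0.24 against 3.95 ± 0.173 CPM and Hoxd at 6.48 ± 0.955 against 3.98 ± 0.344 CPM. Most of the Hoxc difference was Hoxc13, at 4.95 ± 0.299 against 2.25 ± 0.102 CPM. Hoxb summed to 2.61 ± 0.345 CPM against 3.68 ± 0.316. The samples of Smchd1 KO and WT did not overlap in any of the 4 sums. Among all single genes tested, 29.6% were lower and 28.2% higher with no overlap. Marker sums of neural and neural crest cells (4 of 9 passed the filter, none called, none at 0 in all samples of either group) moved as well, at 45.7 to 62.3 CPM in Smchd1 KO against 25.3 to 25.7 CPM in WT; they were 22.9 to 65.4 in Dux KO and 16.5 to 58.9 in Double KO, with Neurog2 at 0 in the former and Olig2 in the latter. Their part in the Hox results was not tested.

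**Figure D2:**
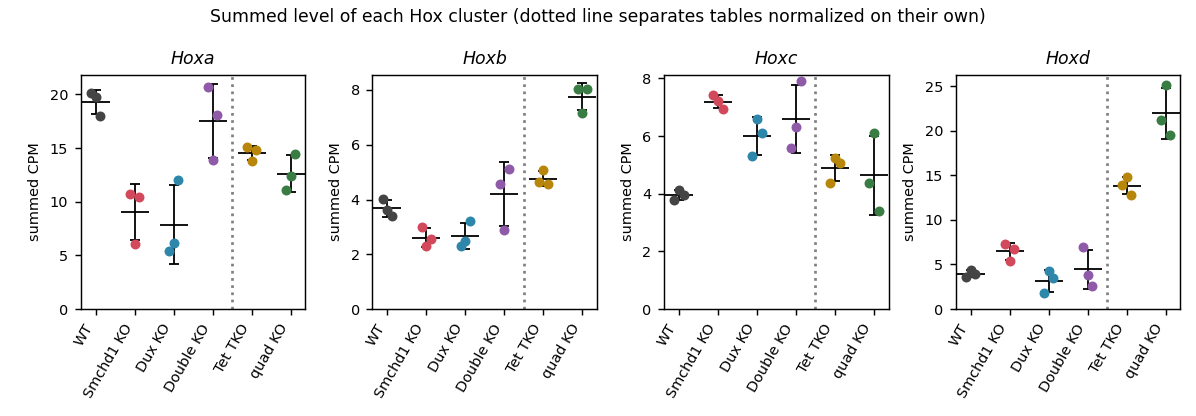
Summed CPM of the genes of each Hox cluster in the 6 genotypes (points, samples; bar, mean ± SD, n = 3), with a dotted line between the tables normalized on their own. Hoxa is lower in Smchd1 KO and Dux KO than in WT and Double KO, and Hoxb and Hoxd are higher in quad KO than in Tet TKO.

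Hoxa3, which patterns the pharyngeal arches and neck, was the Hox gene called in Smchd1 KO against WT. It had 2.18, 2.54 and 1.80 CPM in the WT samples and 0.787, 0.482 and 0.515 CPM in Smchd1 KO. The groups did not overlap, and the fall was 1.29 on the log2 scale (SE 0.20, limma adjusted p = 0.00994). In this comparison 0.241% of all genes were called lower and 0.648% higher. Over all 11 Hoxa genes 9 changes were negative, with a median of -0.91, against 13299 of 28140 negative over all genes with reads and a median of 0.01.

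Other Hoxa genes lay lower without passing the test. Hoxa5, which acts in the lung and trachea, had 1.18, 1.14 and 1.13 CPM in the WT samples and 0.562, 0.386 and 0.219 CPM in the knockout (log2 change -0.91, SE 0.20, limma adjusted p = 0.062). Hoxa7, a trunk gene, had 1.96, 1.52 and 1.79 CPM and then 0.660, 0.386 and 0.887 CPM (-1.0, SE 0.23, limma adjusted p = 0.072). In both genes the highest Smchd1 KO sample was below the lowest WT sample. That was so for 8 of the 9 tested Hoxa genes, in a comparison where 29.6% of all genes were lower with no overlap. Hoxa2 and Hoxa9, among the 8, passed the filter through WT and Double KO alone, so a fall in them was favoured by the choice. Hoxa2, chosen after its values were seen, had the largest ratio of means, 0.68 ± 0.114 CPM in WT against 0.0899 ± 0.0526 CPM (7.56-fold, limma adjusted p = 0.14). The 2 Hoxa genes at the 5′ end did not share this, and in both the groups overlapped: Hoxa11 lay at 0.401 CPM (WT) and 0.655 CPM (Smchd1 KO) and Hoxa13, below the filter, at 0.198 and 0.502 CPM.

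The low chromosome 6 of Smchd1 KO replicate 2 touches the Hoxa values. With chromosome medians centred in each sample, the Hoxa3 change was -1.14 with an adjusted p of 0.0541, and without the samples of low chromosome 6 it was -1.22 with an adjusted p of 0.0784, both by limma, so the call ended while the size moved little. The Hoxa sum of replicates 1 and 3, whose chromosome 6 median was -0.01 and 0.01, was lower than the WT mean by 0.84 and 0.89 on the log2 scale. The call also ended without WT replicate 1 or 2 and without Smchd1 KO replicate 2 or 3, with 0 Hox genes called each time. Over all genes 51, 55, 45 and 37 were called there, against 144 with all samples. The limma, edgeR or DESeq2 adjusted p of Hoxa3 ranged from 6.81e-07 to 0.0903 over 18 alternatives. edgeR on the recovered reads called 4 Hox genes, Hoxa2, Hoxa3, Hoxa5 and Hoxa7. When WT and Smchd1 KO were fitted without the more variable Dux KO and Double KO samples, 13 of 15 tested Hox genes were called, 4 higher and 9 lower, along with 6763 genes in all.

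**Figure D3:**
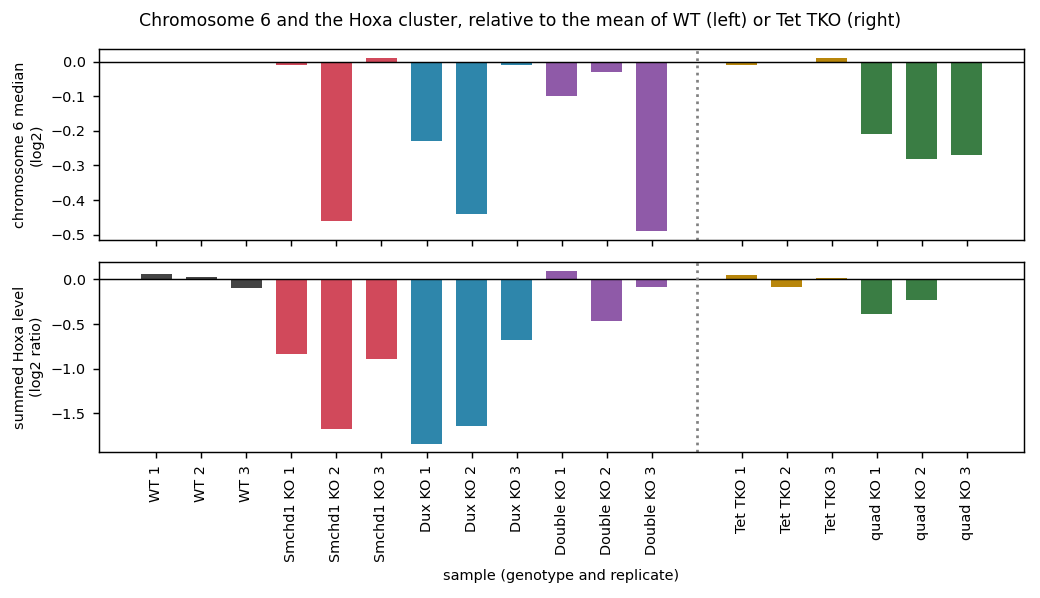
Median log2 difference of chromosome 6 genes (top) and log2 ratio of summed Hoxa CPM (bottom) in each sample, against the mean of WT (left of the dotted line) or Tet TKO (right). Hoxa is lower in all 3 Smchd1 KO and all 3 Dux KO samples (-0.68 to -1.84), with chromosome 6 medians from 0.01 to -0.46, and Double KO replicate 3 has the lowest chromosome 6 median (-0.49) with a Hoxa ratio of -0.09.

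Most Hoxc and Hoxd genes lay higher in Smchd1 KO, though none was called. Hoxc13, a gene of hair and nail formation, had 2.14, 2.34 and 2.28 CPM in the WT samples and 5.01, 5.22 and 4.63 CPM in the knockout (log2 change 0.99, SE 0.25, limma adjusted p = 0.0924). Hoxd13, a gene of the digits and genital tract, had 1.98, 2.66 and 2.64 CPM and then 3.84, 2.90 and 3.62 CPM (0.43, SE 0.26, limma adjusted p = 0.417). Neither gene overlapped between the groups. Hoxd8 lay at 0.667, 0.743 and 0.483 CPM in the WT samples and 1.13, 0.933 and 1.34 CPM in the knockout. Hoxc4 lay at 0.683, 0.596 and 0.605 CPM and then 0.986, 0.802 and 0.810 CPM. Over all members with reads, 7 of 9 Hoxc and 9 of 9 Hoxd changes were positive, with medians of 0.18 and 0.24. The samples did not overlap for 5 of the 7 tested Hoxc and Hoxd genes, where 28.2% of all genes were higher with no overlap. Hoxd1, among the 5, reached 0.5 CPM in every Smchd1 KO sample and no WT sample, so a rise in it was favoured by the choice.

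Hoxb genes mostly lay lower, with none called. Hoxb9, which acts in the thoracic skeleton, had 2.06, 1.76 and 1.6 CPM in the WT samples and 1.45, 1.08 and 0.934 CPM in the knockout (-0.49, SE 0.24, limma adjusted p = 0.337). Hoxb4, known for its action in blood stem cells, had 0.529, 0.231 and 0.412 CPM and then 0.511, 0.386 and 0.820 CPM, and the groups overlapped. Of the 10 Hoxb genes 8 changes were negative, with a median of -0.18.

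Loss of Dux was compared with the same WT samples, so the Dux KO and Smchd1 KO comparisons are not independent. In Dux KO 4 Hox genes were called, Hoxa3, Hoxa5, Hoxa7 and Hoxa9, all lower; 2.35% of all genes were called lower. The Hoxa sum was 5.37, 6.18 and 12.1 CPM in the 3 samples, so replicate 3 lay nearest to WT.

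Hoxa3 had 0.671, 0.618 and 0.590 CPM in the Dux KO samples, a fall of 1.24 on the log2 scale (SE 0.20, limma adjusted p = 0.0139). Hoxa5 had 0.224, 0.412 and 0.262 CPM, a fall of 1.05 (SE 0.20, limma adjusted p = 0.0242). Hoxa7 had 0.597, 0.549 and 0.852 CPM, a fall of 0.96 (SE 0.23, limma adjusted p = 0.0448). Every Dux KO sample was below every WT sample in these genes, and in 8 of the 9 tested Hoxa genes, where 23.1% of all genes were lower with no overlap. Hoxa9, a gene of the posterior trunk and of blood progenitors, had 1.05, 0.969 and 1.17 CPM in the WT samples. The Dux KO samples had no Hoxa9 reads in replicates 1 and 2 and 0.131 CPM in replicate 3 (log2 change -1.53, SE 0.33, limma adjusted p = 0.0334). Like Hoxa2, Hoxa9 passed the filter through WT and Double KO alone, so a fall in Dux KO was built into the choice. Hoxa5 reached 0.5 CPM in no Dux KO sample and in 1 Smchd1 KO sample, so its fall in Dux KO was favoured as well. With no filter Hoxa9 was not called (limma adjusted p = 0.0582). The change rests on 2 Dux KO reads against 217 in WT, a ratio of 22.6 with a 95% interval of 6.19 to 188 from counting error alone.

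Hoxa10 spread widely within Dux KO, at 0.522, 0 and 1.11 CPM (-1.34, SE 0.44, limma adjusted p = 0.0921). Replicate 3 was the highest, and replicate 2 had no reads of it. Over all 11 Hoxa genes 10 changes were negative, with a median of -1.0, against 15050 of 28140 negative over all genes. The medians of Hoxb and Hoxd were -0.12 and -0.06, and all 9 Hoxc changes were positive with a median of 0.26. Hoxc13 had 2.39, 3.37 and 3.47 CPM in Dux KO and Hoxc4 0.895, 1.44 and 0.918 CPM, both above all WT samples. Hoxd13 had 1.04, 2.20 and 1.05 CPM and Hoxd8 0.298, 0.962 and 1.18 CPM, both overlapping WT. None of these was called. Hoxb9 (1.27, 1.72 and 1.77 CPM) and Hoxb4 (0.597, 0 and 0.459 CPM) overlapped WT. Hoxb7, below the filter, was at 0.138 ± 0.0647 CPM against 0.501 ± 0.0546 in WT and was called only when all genes were tested (-0.65, limma adjusted p = 0.0257). In that fit Hoxa3 (limma adjusted p = 0.0277) and Hoxa5 (limma adjusted p = 0.0307) were called and Hoxa7 (-0.96, limma adjusted p = 0.0823) was not.

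Chromosome 6 was low in replicates 1 and 2 of Dux KO. After centring the chromosome medians, Hoxa3 (-1.01, limma adjusted p = 0.0494) and Hoxa9 (-1.31, limma adjusted p = 0.04) were called and Hoxa5 (-0.83, limma adjusted p = 0.104) and Hoxa7 (-0.73, limma adjusted p = 0.1) were not. Without the samples of low chromosome 6 the calls were Hoxa3 (-1.23, limma adjusted p = 0.0369), Hoxa5 (-1.15, limma adjusted p = 0.0307) and Hoxa4, and those of Hoxa7 (-0.89, limma adjusted p = 0.0745) and Hoxa9 (-1.47, limma adjusted p = 0.0655) ended. In Dux KO replicate 3, whose chromosome 6 median was -0.01, the Hoxa sum was 0.68 below WT on the log2 scale. Leaving out any WT replicate ended all 4 calls, and the calls over all genes went from 644 to 2, 16 and 2. Leaving out Dux KO replicate 1 or 2 left Hoxa3 and Hoxa5, with 703 and 95 genes called in all. A filter of 2 CPM, under which 5 Hox genes were tested, left Hoxa3. Over their alternatives the limma, edgeR or DESeq2 adjusted p ranged from 0.000419 to 0.106 for Hoxa3, 0.00594 to 0.139 for Hoxa5, 0.0093 to 0.189 for Hoxa7 and 0.00298 to 0.153 for Hoxa9.

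The starts of Hoxa3, Hoxa5, Hoxa7 and Hoxa9 are shown because these 4 genes were called together. Each line gives the 250 bases before the start in RefSeq (build GRCm38.p6), read 5′ to 3′ on the gene's strand, with CG dinucleotides, the targets of DNA methylation, in capitals. The windows are chr6:52213068-52213317 for Hoxa3, chr6:52204588-52204837 for Hoxa5, chr6:52218574-52218823 for Hoxa7 and chr6:52227371-52227620 for Hoxa9, all on the minus strand.
Hoxa3: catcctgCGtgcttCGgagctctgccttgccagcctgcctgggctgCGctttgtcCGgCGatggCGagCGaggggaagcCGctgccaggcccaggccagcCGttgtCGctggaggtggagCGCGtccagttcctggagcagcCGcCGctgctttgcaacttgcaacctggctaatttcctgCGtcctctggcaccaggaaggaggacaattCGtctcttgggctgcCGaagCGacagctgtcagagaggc
Hoxa5: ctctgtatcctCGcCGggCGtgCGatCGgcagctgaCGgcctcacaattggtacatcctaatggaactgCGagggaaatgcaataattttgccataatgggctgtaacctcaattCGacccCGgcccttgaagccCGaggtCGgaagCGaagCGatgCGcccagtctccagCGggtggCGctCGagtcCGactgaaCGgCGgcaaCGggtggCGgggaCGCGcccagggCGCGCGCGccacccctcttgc
Hoxa7: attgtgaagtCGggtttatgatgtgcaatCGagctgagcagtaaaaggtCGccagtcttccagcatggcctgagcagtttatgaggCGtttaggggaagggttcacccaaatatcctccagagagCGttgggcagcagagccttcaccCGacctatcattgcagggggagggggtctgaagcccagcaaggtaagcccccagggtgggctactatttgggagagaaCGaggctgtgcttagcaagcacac
Hoxa9: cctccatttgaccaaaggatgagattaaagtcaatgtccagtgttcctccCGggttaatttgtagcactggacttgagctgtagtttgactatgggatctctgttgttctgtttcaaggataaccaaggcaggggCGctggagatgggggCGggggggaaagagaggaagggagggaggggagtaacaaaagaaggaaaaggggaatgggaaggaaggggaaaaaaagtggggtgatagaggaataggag
The windows differ in CG content, with 18 CG in Hoxa3, 28 in Hoxa5, 7 in Hoxa7 and 3 in Hoxa9. Of 32851 windows of the same length, 21.7% hold at least as many CG as Hoxa3, 7.61% as Hoxa5, 46.3% as Hoxa7 and 71.0% as Hoxa9. The homeodomain core TAAT, on either strand, is found in the windows of Hoxa3, Hoxa5 and Hoxa9 and not in that of Hoxa7, and 54.9% of all windows hold it. The start of Hoxa3 in RefSeq lies 5′ of those of Hoxa5 and Hoxa6 on the same strand, so reads of overlapping transcripts may be shared between these genes.

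Double KO was set against each single knockout, so these comparisons share the Double KO samples. The Hoxa sum was 20.7, 13.9 and 18.1 CPM in Double KO, above every Smchd1 KO and Dux KO sample; the WT samples lay between 18.0 and 20.1 CPM, and Double KO replicate 2 was below them. Against Smchd1 KO, which asks what loss of Dux does in cells that lack Smchd1, 3 Hox genes were called higher, Hoxa3, Hoxa5 and Hoxa7, and none lower; 4.38% of all genes were called, 1.4% higher and 2.98% lower. Hoxa3 had 2.04, 1.22 and 1.78 CPM in Double KO (log2 change 0.99, SE 0.20, limma adjusted p = 0.0256). Hoxa5 had 0.866, 0.979 and 1.43 CPM (0.84, SE 0.20, limma adjusted p = 0.0392). Hoxa7 had 2.72, 1.65 and 2.85 CPM (1.34, SE 0.23, limma adjusted p = 0.0114). The groups did not overlap in these 3 genes, and the same held for 6 of the 9 tested Hoxa genes, where 13.0% of all genes were higher with no overlap. Hoxa2 and Hoxa9, among the 6, passed the filter through WT and Double KO alone, so a rise in them was favoured by the choice.

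**Figure D4:**
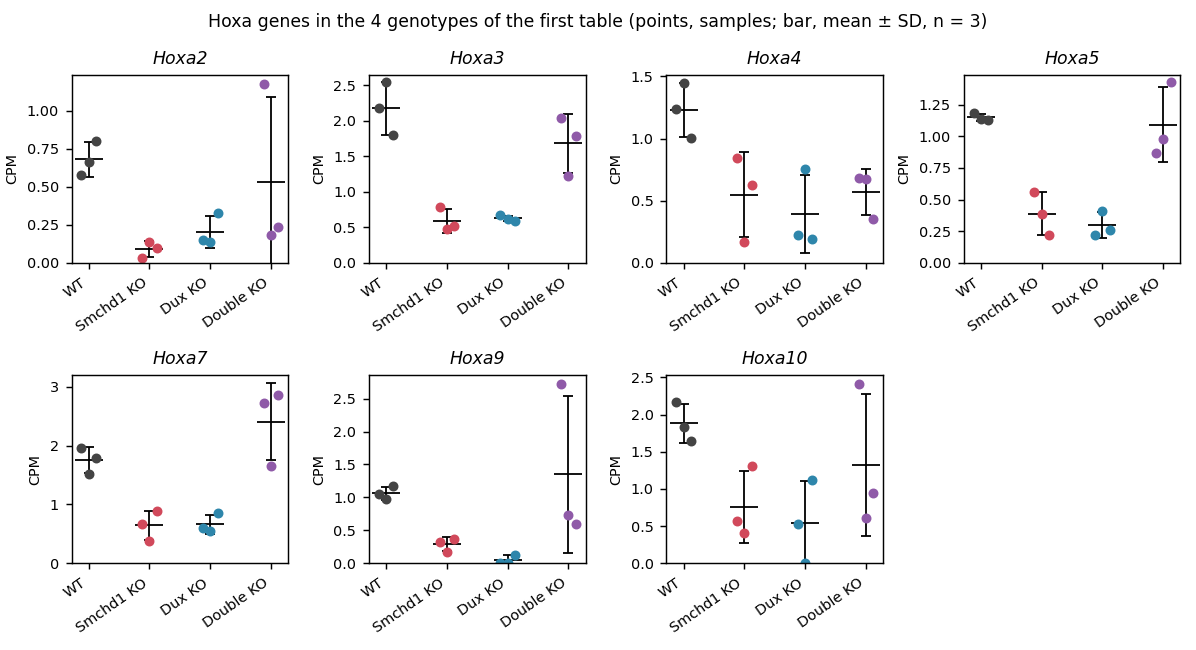
CPM of 7 Hoxa genes in the 4 genotypes of the first table (points, samples; bar, mean ± SD, n = 3). Hoxa3, Hoxa5 and Hoxa7 are lower in every Smchd1 KO and Dux KO sample than in every WT and Double KO sample, and in Hoxa2, Hoxa9 and Hoxa10 the highest Double KO sample is replicate 1.

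Hoxa9 and Hoxa10 differed between the Double KO samples. Hoxa9 had 2.72, 0.734 and 0.594 CPM there and 0.323, 0.172 and 0.372 CPM in Smchd1 KO (1.06, SE 0.33, limma adjusted p = 0.0816). Hoxa10, a gene of the uterus and hindlimb, had 2.41, 0.612 and 0.951 CPM and, in Smchd1 KO, 0.562, 0.408 and 1.31 CPM (0.48, SE 0.44, limma adjusted p = 0.515). Replicate 1 was the highest in both. Over all 11 Hoxa genes 9 changes were positive, with a median of 0.68.

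Hoxd13 lay on the other side, at 2.04, 1.28 and 1.25 CPM in Double KO against 3.84, 2.90 and 3.62 CPM in Smchd1 KO (-0.98, SE 0.26, limma adjusted p = 0.0507). Hoxc13 (2.29, 2.87 and 5.05 CPM), Hoxc4 (0.866, 1.53 and 0.594 CPM) and Hoxd8 (1.24, 0.979 and 0.475 CPM) overlapped between these groups. Hoxb9 had 2.79, 1.41 and 2.79 CPM (0.74, SE 0.24, limma adjusted p = 0.0918) and Hoxb4 0.557, 0.306 and 0.238 CPM. None of these genes was called. Without the samples of low chromosome 6 the Hoxa7 call held (1.05, limma adjusted p = 0.0445) and those of Hoxa3 (0.87, limma adjusted p = 0.07) and Hoxa5 (0.7, limma adjusted p = 0.078) ended, while Hoxd13 was called lower. The Hoxa5 call also ended with chromosome medians centred (0.9, limma adjusted p = 0.0814) and with replicate number as a block in the fit (0.84, limma adjusted p = 0.0565). Those of Hoxa3 and Hoxa7 held in both. Over their alternatives the limma, edgeR or DESeq2 adjusted p ranged from 0.000328 to 0.123 for Hoxa3, 0.00576 to 0.163 for Hoxa5 and 4.48e-06 to 0.0869 for Hoxa7. With only Double KO and Smchd1 KO in the fit 0 Hox genes were called, and without Smchd1 KO replicate 1 or 2 also 0. Over all genes 122, 50 and 94 were called in these fits, against 709 in the main one. Leaving out Smchd1 KO replicate 3 or Double KO replicate 1 left 1 Hox gene, with 82 and 191 genes called in all. Leaving out Double KO replicate 3 gave 5, Hoxc13 lower and 4 Hoxa genes higher, with 2422 in all. With a filter of 2 CPM the count was 1, Hoxa3.

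Against Dux KO, which asks what loss of Smchd1 does in cells that lack Dux, 0 Hox genes were called by limma, and 2 of all 16200 genes were (0.0123%, of which 0.00617% higher and 0.00617% lower). At an unadjusted p under 0.05 there were 5 of 19 Hox genes, against 9.77% of all genes. edgeR called 0 and DESeq2 3 Hox genes, namely Hoxa3, Hoxa7 and Hoxa9. The changes were 0.94 for Hoxa3 (SE 0.20, limma adjusted p = 0.178), 0.98 for Hoxa5 (SE 0.20, limma adjusted p = 0.178) and 1.30 for Hoxa7 (SE 0.23, limma adjusted p = 0.152). Every Double KO sample lay above every Dux KO sample for these genes and for Hoxa9 (1.6, SE 0.33, limma adjusted p = 0.178), where 3.05% of all genes were higher with no overlap and 3.1% lower. For Hoxa9, which passed the filter through WT and Double KO alone, a rise was built into the choice. Hoxa5 reached 0.5 CPM in no Dux KO sample, so its rise was favoured as well. The limma count of Hox genes was 3 without Double KO replicate 2, 2 without Dux KO replicate 3 and 1 without Double KO replicate 3. Over all genes 146, 129 and 83 were called there. Over all 11 Hoxa genes 10 changes were positive, with a median of 0.84.

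The difference between the Smchd1 effects in the 2 Dux backgrounds was tested as an interaction, the change from Dux KO to Double KO minus the change from WT to Smchd1 KO. It was positive and called for Hoxa3 (2.23, SE 0.29, limma adjusted p = 0.0181), Hoxa5 (1.89, SE 0.28, limma adjusted p = 0.0236), Hoxa7 (2.30, SE 0.33, limma adjusted p = 0.0224) and Hoxa9 (2.59, SE 0.47, limma adjusted p = 0.0355), and 0.512% of all genes were called, 0.154% positive and 0.358% negative. For Hoxa9, which entered the test through WT and Double KO alone, a positive value was built into the choice. With no filter Hoxa9 was not called (limma adjusted p = 0.063) and the other 3 were. Hoxa5 reached 0.5 CPM in no Dux KO sample and in 1 Smchd1 KO sample, so a positive value was favoured for it too. In these genes Smchd1 KO was below WT and Double KO above Dux KO. The interaction was 1.82 for Hoxa10 (SE 0.62, limma adjusted p = 0.172). Its median was 1.73 over all 11 Hoxa genes, 0.30 over Hoxb, -0.02 over Hoxc, -0.03 over Hoxd and -0.01 over all genes. No Hoxb, Hoxc or Hoxd gene was called.

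The size of the interaction was similar without the samples of low chromosome 6, at 2.11 for Hoxa3, 1.85 for Hoxa5, 1.94 for Hoxa7 and 2.71 for Hoxa9, but none was called there (limma adjusted p = 0.114 to 0.115), nor was any other gene. Over the alternatives of each gene the adjusted p ranged from 7.98e-07 to 0.114 for Hoxa3, 0.00014 to 0.12 for Hoxa5, 9.26e-07 to 0.114 for Hoxa7 and 0.000144 to 0.128 for Hoxa9. With chromosome medians centred Hoxa3 (2.06), Hoxa7 (2.13) and Hoxa9 (2.42) were called and Hoxa5 (1.72, limma adjusted p = 0.0683) was not. The count of Hox genes was 0 without any 1 WT replicate, without Smchd1 KO replicate 2 or without Dux KO replicate 2. Over all genes 0, 4 and 0 were called there, against 83 with all samples. The Hox count was 1 without Smchd1 KO replicate 1, where 4 genes were called in all, and 7 without Double KO replicate 2, where 1216 were. By edgeR it was 2, Hoxa3 and Hoxa7, and with a filter of 2 CPM it was 1, Hoxa3. The sum of the ES cell markers, given above, was lower in every Double KO sample than in any other first-table sample. Marker sums of other cell types spread widely in the knockouts, and those of Double KO overlapped at least 1 single knockout. Those of trophoblast (8 of 10 passed the filter) gave 199 to 811 CPM, against 104 to 110 (WT), 124 to 217 (Smchd1 KO) and 67.9 to 265 (Dux KO), with Tpbpa at 0 in all but Smchd1 KO. Endoderm markers (9 of 11 entries passed, Afp at 0 in Dux KO) gave 26.3 to 210 CPM in Double KO, 88.4 to 94.1 (WT), 50.2 to 243 (Smchd1 KO) and 42.5 to 189 (Dux KO). Fibroblast markers (6 of 10 passed the filter) gave 31.5 to 59.1 CPM in Double KO, 20.7 to 22.8 (WT), 29.9 to 58.3 (Smchd1 KO) and 11.8 to 35.1 (Dux KO), with Lum at 0 in the 3 knockouts and Dcn in Dux KO and Double KO. Among markers the calls were Fgf4, Tdgf1, Hnf4a and Ascl2 lower and Col3a1 higher in Double KO against Smchd1 KO, Hnf4a higher in Smchd1 KO, Utf1 lower in Dux KO and Hnf4a negative in the interaction. Their part in the Hox results was not tested.

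Loss of Smchd1 was also measured in the Tet-deficient background. In quad KO against Tet TKO, Hoxd11, Hoxd12, Hoxd13 and Hoxc10 were called higher and Hoxa10 lower, 5 of 18 tested, where 17.1% of all genes were called higher, 20.6% lower and 37.7% in either direction. The share of Hox genes called was thus not above that of all genes. The Hoxd sum was 21.9 ± 2.88 CPM against 13.8 ± 0.977 CPM in Tet TKO. Most of that difference was Hoxd13, at 15.4 ± 1.3 against 8.93 ± 0.824 CPM. The Hoxb sum was 7.76 ± 0.503 against 4.77 ± 0.276 CPM. The Hoxa sum was 12.6 ± 1.7 against 14.5 ± 0.685 CPM and the Hoxc sum 4.63 ± 1.37 against 4.9 ± 0.463 CPM.

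Hoxd13 had 8.99, 9.71 and 8.07 CPM in the Tet TKO samples and 14.8, 16.9 and 14.5 CPM in the quad KO samples (log2 change 0.76, SE 0.10, limma adjusted p = 0.00107). Hoxd11, a gene of the forearm and kidney, had 0.611, 0.519 and 0.492 CPM and then 1.2, 1.63 and 1.4 CPM (0.87, SE 0.14, limma adjusted p = 0.00218). Every quad KO sample was above every Tet TKO sample. Hoxd12, which acts with its neighbours in the limb, had 0.441, 0.207 and 0.232 CPM and then 0.702, 0.778 and 0.790 CPM (0.67, SE 0.15, limma adjusted p = 0.0108). Hoxc10, a gene of the lumbar trunk and hindlimb, had 0.170, 0.277 and 0.347 CPM and then 0.602, 1.17 and 0.538 CPM (0.70, SE 0.21, limma adjusted p = 0.0304). Hoxd12 and Hoxc10 passed the filter through quad KO alone, so a difference in them was built into the choice. Their calls also ended when a Tet TKO replicate was left out, replicate 2 or 3 for Hoxd12 and any of the 3 for Hoxc10. Those of Hoxd11, Hoxd13 and Hoxa10 held in every alternative that tested them, at adjusted p of 0.00142 to 0.016 for Hoxd11, 1.49e-08 to 0.00896 for Hoxd13 and 1.68e-07 to 0.00835 for Hoxa10. Hoxd12 and Hoxc10 were not tested when any quad KO replicate was left out, and the count was 3 without quad KO replicate 1 or Tet TKO replicate 3.

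Hoxa10 had 2.48, 2.28 and 2.72 CPM in the Tet TKO samples and 0.602, 0.318 and 0.826 CPM in the quad KO samples, with no overlap (log2 change -1.49, SE 0.19, limma adjusted p = 0.000855). With chromosome medians centred the change was -1.24 (limma adjusted p = 0.00199), against a chromosome 6 median of -0.21 to -0.28 in quad KO. Its neighbours on both sides lay below the filter and were chosen after their values were seen. With no filter 9 of 39 Hox genes were called, and 5397 of 25073 genes in all. When all genes were tested, Hoxa9 (0.382 ± 0.0763 CPM in Tet TKO, 0.106 ± 0.063 in quad KO, limma adjusted p = 0.00893), Hoxa11 (0.715 ± 0.261 and 0.0931 ± 0.0545, limma adjusted p = 0.00393) and Hoxa13 (0.606 ± 0.231 and 0.175 ± 0.0658, limma adjusted p = 0.021) were lower and Hoxb1 (0.197 ± 0.105 and 0.938 ± 0.624, limma adjusted p = 0.0375) was higher. Hoxa9, Hoxa10, Hoxa11 and Hoxa13 stand at the 5′ end of their cluster, as Hoxd11, Hoxd12 and Hoxd13 do of theirs. Of these Hoxa genes, Hoxa9 and Hoxa10 also lay lower in Smchd1 KO than in WT, with no overlap (log2 changes -0.99 and -0.98). Neither was called there, and Hoxa9 entered that test through WT and Double KO alone.

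**Figure D5:**
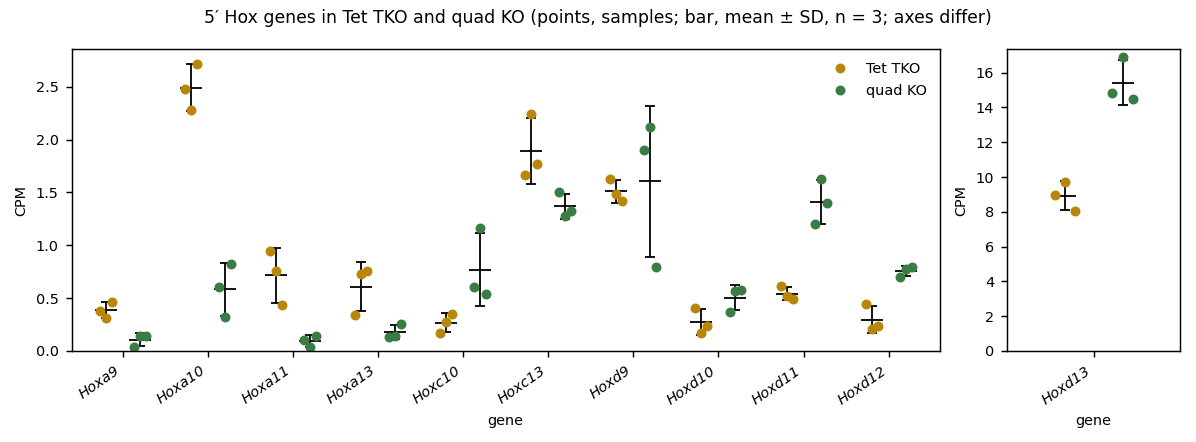
CPM of 5′ Hox genes in Tet TKO and quad KO (points, samples; bar, mean ± SD, n = 3); Hoxd13 has its own axis. Hoxa9 to Hoxa13 are lower in every quad KO sample, and Hoxc10, Hoxd11, Hoxd12 and Hoxd13 are higher in every quad KO sample.

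The tables are not compared here. Among the 3′ Hoxa genes that were lower in Smchd1 KO than in WT, Hoxa2 was below the filter of the second table. Its mean was 0.349 CPM with Smchd1 lost and 0.254 CPM without that loss, and the groups did not overlap. Hoxa3, Hoxa5 and Hoxa7, also lower in Smchd1 KO, lay close together in Tet TKO and quad KO. Hoxa3 had 1.66, 1.04 and 1.36 CPM in the former and 1.37, 1.31 and 1.04 CPM in the latter (-0.08, SE 0.16, limma adjusted p = 0.719). Hoxa5 had 0.780, 0.899 and 0.636 CPM and then 0.501, 0.990 and 0.826 CPM (-0.01, SE 0.18, limma adjusted p = 0.959). Hoxa7 had 2.10, 1.56 and 1.56 CPM and then 1.84, 1.70 and 2.26 CPM (0.12, SE 0.15, limma adjusted p = 0.56). The groups overlapped in all 3. Hoxb9 had 1.39, 2.07 and 1.48 CPM and then 2.77, 3.08 and 1.97 CPM (0.53, SE 0.18, limma adjusted p = 0.0549). Hoxb4 had 1.02, 0.933 and 0.781 CPM and then 1.04, 1.31 and 0.969 CPM. Hoxc13 had 1.66, 2.25 and 1.76 CPM and then 1.5, 1.27 and 1.33 CPM, with no overlap (-0.35, SE 0.14, limma adjusted p = 0.0786). Hoxc4 had 1.7, 2.21 and 1.94 CPM and then 1.2, 1.73 and 0.897 CPM, and Hoxd8 had 1.12, 1.25 and 1.33 CPM and then 1.04, 1.52 and 0.610 CPM. None of these genes was called. Over all members with reads, 7 of 9 Hoxd and 10 of 10 Hoxb changes were positive, with medians of 0.37 and 0.18. The figures were 4 of 11 for Hoxa (median -0.08) and 5 of 9 for Hoxc (0.02), and 12525 of 25073 over all genes.

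The starts of Hoxd12 and Hoxd13 are shown as neighbours that were called together in quad KO. They are the 250 bases before the start in RefSeq (GRCm38.p6), at chr2:74674763-74675012 for Hoxd12 and chr2:74667975-74668224 for Hoxd13, both on the plus strand, with CG in capitals.
Hoxd12: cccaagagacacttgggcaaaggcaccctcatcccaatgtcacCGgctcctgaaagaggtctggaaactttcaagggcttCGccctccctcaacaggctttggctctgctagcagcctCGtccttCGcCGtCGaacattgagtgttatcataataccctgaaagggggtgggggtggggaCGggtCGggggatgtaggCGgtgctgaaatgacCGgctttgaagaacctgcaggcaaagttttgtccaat
Hoxd13: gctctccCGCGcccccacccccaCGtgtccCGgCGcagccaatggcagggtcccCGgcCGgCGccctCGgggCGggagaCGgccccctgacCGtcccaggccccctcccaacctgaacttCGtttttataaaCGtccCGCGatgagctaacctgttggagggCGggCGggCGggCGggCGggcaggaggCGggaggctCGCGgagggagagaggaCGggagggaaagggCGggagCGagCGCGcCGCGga
Hoxd12 has 10 CG, a number that 37.8% of all windows reach, and Hoxd13 has 31, which 5.19% reach. Over the 22 Hox genes with an entry, the median window held 12.5 CG against 6 over all windows, with a range of 2 to 35.

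Cell-state markers also differed in quad KO, where 37.7% of all genes were called. Of the 10 ES cell markers 7 were called lower, led by Nanog (-2.40) and Esrrb (-1.92), and 1 higher, and their sum was 3190 to 3340 CPM against 4060 to 4170 in Tet TKO. Markers of primitive streak and mesoderm (5 of 10 passed the filter, 4 called higher, T and Mixl1 among them) summed to 40.8 to 65.9 CPM against 30.1 to 34.0, with Msgn1 at 0 in both. Neural markers (7 passed, 5 higher and 1 lower) summed to 47.3 to 55.1 CPM against 35.1 to 38.0, and fibroblast markers (6 passed, 4 higher) to 31.9 to 35.4 CPM against 19.9 to 20.4. Others went both ways. Of 8 tested trophoblast markers Krt7, Krt8, Krt18 and Hand1 were higher and Gata3 (-1.39) and Tcfap2c (-1.04) lower, with sums of 285 to 535 CPM against 260 to 268 and Tpbpa at 0 in both. Of 8 tested endoderm markers Gata4 and Dab2 were higher and Hnf4a, Sox7 and Gata6 lower, with sums of 24.3 to 25.9 CPM against 24.2 to 24.9. Their part in the Hox results was not tested.

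Other genes of the Hox system were followed as lists. Their counts in quad KO stand against 17.1% of all genes called higher and 20.6% lower. The TALE cofactors, which bind DNA with HOX proteins, were all tested (9 of 9); none was called in the 5 first-table comparisons. In quad KO 4 rose, among them Meis1 (1.0, limma adjusted p = 0.00145), Meis3 (0.58) and Pbx2 (0.22), and 2 fell, Pbx3 (-0.37) and Pbx4 (-0.38). The CDX proteins activate Hox clusters during axis elongation. Cdx2 rose in quad KO by 1.57 (SE 0.18, limma adjusted p = 0.000566), Cdx4 rose by 0.37 and Cdx1 fell by 0.76, while none of 3 tested ParaHox genes was called in the first table. The Cdx2 interaction there was 3.09 (SE 0.85, limma adjusted p = 0.115), which was not called, and its relation to the Hox changes was not tested.

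Polycomb genes keep Hox clusters silent, and 31 were tested. In quad KO 9 fell, Ezh2 (-0.43), Suz12 (-0.20), Bmi1 (-0.54) and Scmh1 (-0.81) among them, and Cbx7 rose (0.12), so that 10 of 31 were called where 37.7% of all genes were. In Dux KO Phc3 rose (0.75) and Kdm2b fell (-0.53), where 1.63% of all genes were called higher and 2.35% lower. In Double KO against Smchd1 KO 2 fell, Bmi1 (-0.53) among them, where 2.98% of all genes were called lower. No Polycomb gene was called in the other comparisons. Of 11 trithorax and H3K27 demethylase genes, which oppose Polycomb, 3 rose and 3 fell in quad KO, with Mll1 at 0.31. In Double KO against Smchd1 KO Mll1 rose (0.93) and Dpy30 fell (-0.78), where 1.4% of all genes were called higher and 2.98% lower. Retinoic acid switches on 3′ Hox genes. Of its pathway, 2 of 17 genes fell in Dux KO, Rarg (-0.80) and Rxrg (-1.41), where 2.35% of all genes were called lower. In quad KO 3 of 15 rose, among them Cyp26a1 (0.68) and Crabp2 (0.42), and 2 fell, Rxra (-0.86) and Stra8 (-0.55), again near the 37.7% of all genes. None was called in the other 4 comparisons.

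The genes on either side of Hoxa were compared with the cluster. Of 8 tested, 0 were called in Smchd1 KO. In Dux KO 1 was called, Skap2 (-0.81, limma adjusted p = 0.0481), against 3.98% of all genes. The medians of the 8 in Smchd1 KO and Dux KO were -0.35 and -0.34, against -0.98 and -1.05 for the 9 tested Hoxa genes. The interaction median was 0.47 for the flank and 1.82 for Hoxa. In quad KO 5 flanking genes fell, Snx10 (-0.58), Hibadh (-0.55), Skap2 (-0.46), Tax1bp1 (-0.21) and Cbx3 (-0.18), where 20.6% of all genes were called lower. The chromosome 6 median was -0.21 to -0.28 in the quad KO samples, and -0.23 and -0.44 in Dux KO replicates 1 and 2. The flank changes were not tested against the chromosome's shift. Beside Hoxb, 3 of 11 genes were called in Dux KO, against 3.98% of all genes. Ttll6 was higher (1.89) and Ube2z (-0.49) and Atp5g1 (-0.82) lower. In quad KO 3 fell, Calcoco2 (-2.49), Ttll6 (-0.48) and Atp5g1 (-0.25), where 20.6% of all genes were called lower. The flanks of Hoxc held no call in any comparison, and that of Hoxd held 1, Chn1 in quad KO (-0.22).

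Noncoding transcripts of the clusters were matched by the name in the files or, where that is another name, by gene identifier, as for the 4 named here, and 11 entries were found. Halr1, a long noncoding RNA of the Hoxa region, was the most abundant, at 32.0 ± 1.07 CPM (WT), 18.2 ± 2.37 (Smchd1 KO), 22.7 ± 4.93 (Dux KO), then 24.0 ± 6.77 (Double KO). Its change in Smchd1 KO was -0.80 (SE 0.20, limma adjusted p = 0.0941), so it was not called, although the groups did not overlap. Hotairm1, a transcript of the 3′ end of Hoxa, was called in Dux KO, at 1.03 ± 0.186 CPM against 2.16 ± 0.356 in WT (-0.79, SE 0.20, limma adjusted p = 0.0481). In the second table Halr1 was at 24.9 ± 2.1 CPM in Tet TKO and 24.1 ± 6.7 in quad KO. Hotair and Hottip were at most 0.131 CPM in any sample.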

How the data were processed

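RNA was sequenced after depletion of ribosomal RNA, per the labels' protocols. Per the submitters' processing notes, Trim Galore, STAR 2.5.1, limma 3.38.2 and the build mm9 were used; the read counter, the annotation release and whether counting used strand are not given in the sources used here, so reads of a gene and of an overlapping or antisense gene cannot be told apart. What the authors deposited is a library-scaled signal, named CPM, with each of the 2 tables scaled on its own. Of the values below 200 reads, 100% could be turned back into whole reads to within 0.1 read in all libraries. In the second table, 3 further columns of per-sample values were not used.

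From these values, technical runs were averaged; the 6 Smchd1 KO columns were joined into 3 pairs as the least noisy of 15 matchings, which the labels do not state; their replicate numbers follow the pairs. limma 3.58.1 (R 4.3.3) was fitted to log2(CPM + 0.5), with an intensity trend and 1 mean per genotype, on genes of at least 0.5 CPM in at least 3 samples (16200 and 14920 genes), two-sided, called under an adjusted p of 0.05. The code was tested on simulated data. edgeR 4.0.16 on the recovered reads called 230 genes in Smchd1 KO against WT, 933 in Dux KO against WT, 2 in Double KO against Dux KO, 897 in Double KO against Smchd1 KO, 7 in the interaction and 5708 in quad KO against Tet TKO; DESeq2 1.42.0 was also run. Chromosomes came from GENCODE M21 by gene identifier (87.4% of entries) and exon lengths from the same annotation.

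The members and gene lists were chosen with earlier results of these data known. Values in every sample of a comparison are given for each Hox gene called in it. For the 2 members of each cluster with the highest mean CPM in the first table, and for Hoxa3 and Hoxa5, they cover all samples. Further Hox genes and values were chosen after they were seen. List genes are named where called. The Cdx2 interaction, Halr1, Hotair and Hottip were not called and are given as well. Some genes that this rule covers are not reported here, though counts, sums and medians include them.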

Additional observations from a re-analysis of the deposited data

Results flagged for a closer look

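The effect of Smchd1 loss was called different between the Dux backgrounds for 4 Hox genes, by limma's test of the difference itself. The Dux KO background minus the WT background was 2.23 for Hoxa3, 1.89 for Hoxa5, 2.30 for Hoxa7 and 2.59 for Hoxa9 on the log2 scale. Of all genes 0.512% were called. All 4 lie on chromosome 6. None of them was called without the samples of low chromosome 6 or without any 1 WT replicate, and edgeR called only Hoxa3 and Hoxa7. Hoxa5 reached 0.5 CPM in no Dux KO sample, so a positive value was favoured for it. Hoxa9 entered the test through WT and Double KO alone, so its positive value was built into the choice, and with no filter it was not called (limma adjusted p = 0.063).

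For 5 genes every Smchd1 KO sample lay on one side of the WT mean and every quad KO sample on the opposite side of the Tet TKO mean. The share of all genes with this pattern was not computed, so it cannot be called particular to Hox genes. With no overlap between samples, 29.6% of all genes were lower and 28.2% higher in Smchd1 KO against WT. In quad KO against Tet TKO 28.2% were lower and 25.1% higher. The difference was not tested, since the tables were normalized separately. Hoxb9 was at -0.49 in Smchd1 KO against WT and 0.53 in quad KO against Tet TKO, and Hoxb13 at -0.28 and 0.39. The order was the opposite in Hoxc4, at 0.27 and -0.48, in Hoxc13, at 0.99 and -0.35, and in Hoxd1, at 0.73 and -0.23. Hoxd1 reached 0.5 CPM in every Smchd1 KO sample and no WT sample, so its rise in Smchd1 KO was favoured by the choice. None of these single changes was called.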

How the results depend on the processing

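Of 289 values of the 17 named gene changes under the alternatives, 203 kept direction and call, 86 kept direction and lost the call and 0 reversed. The counts of Hox genes called moved more. In Smchd1 KO against WT the count of 1 became 4 with edgeR, 6 with DESeq2, 0 with chromosome medians centred, 2 with the replicate block, 2 with WT run 1 alone, 13 with only the 2 groups in the fit and 0 without the samples of low chromosome 6, an alternative chosen after seeing the data. In Dux KO against WT 4 became 1 with a filter of 2 CPM and 2 with medians centred. In Double KO against Dux KO 0 became 3 with DESeq2. In Double KO against Smchd1 KO 3 became 1 with the 2 CPM filter, 5 with edgeR, 7 with DESeq2 and 0 with only the 2 groups. In the interaction 4 became 1 with the 2 CPM filter, 2 with edgeR and 0 without the samples of low chromosome 6. In quad KO against Tet TKO 5 became 9 of 39 with no filter, where 5397 of 25073 genes in all were called, and 2 with the 2 CPM filter.

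Leaving out 1 replicate at a time gave 0 to 1 calls in Smchd1 KO against WT, 0 to 6 in Dux KO against WT, 0 to 3 in Double KO against Dux KO, 0 to 5 in Double KO against Smchd1 KO, 0 to 7 in the interaction and 3 to 5 in quad KO against Tet TKO. Over all genes the same fits gave 37 to 56, 2 to 2797, 0 to 146, 50 to 2422, 0 to 1216 and 3329 to 7520 calls, in that order. Samples share only a number: over 21 pairs of the same number the deviations correlated at -0.42 to 0.47, 6 over 0.1. With the replicate block the other counts were 4 in Dux KO against WT, 0 and 2 in Double KO against Dux KO and Smchd1 KO, 4 in the interaction and 6 in quad KO.

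Over all genes, the share of calls that were higher was 41.0% in Dux KO against WT and 55.9% with medians centred, 62.0% with edgeR and 58.1% with DESeq2. It was 72.9% in Smchd1 KO against WT and 59.3% with DESeq2, 31.9% in Double KO against Smchd1 KO and 48.2% with edgeR and 50.8% with DESeq2, and 30.1% in the interaction and 42.9% and 46.9%. The number of genes called was 144 by limma, 230 by edgeR and 1082 by DESeq2 in Smchd1 KO against WT. DESeq2 called 2606 against limma's 644 in Dux KO against WT, 220 against 2 in Double KO against Dux KO, 2456 against 709 in Double KO against Smchd1 KO and 946 against 83 in the interaction, where edgeR called 7. Causes were not tested. Tet TKO against WT was not run, as the second table's WT-named columns match no single sample. Depth limits the lowest values, such as the 2 reads of Hoxa9 in Dux KO. Of 10 Hoxb and 9 Hoxc genes 3 each passed the filter in the first table, so the others were not tested there.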
